A study of Mus musculus with 8 samples.

Results

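The 49 genes described here encode the fibrous scar of the liver, the enzymes that cross-link and remove it, and the proteins by which hepatic stellate cells are recognised. They were chosen by name as a fibrosis, collagen and stellate cell set, and all 49 were found among the 33212 genes of the count table. All 49 also passed the filter on low counts, which left 15291 genes for testing. RNA-seq was done on liver of C57BL/6 mice of 2 genotypes, with 4 libraries each. In Nnmt LKO mice, loxP-flanked Nnmt alleles were deleted by Cre recombinase under the albumin promoter, which is active in hepatocytes. Control mice carried the same Nnmt flox/flox alleles without Cre and appear as WT in the sample labels. Both genotypes were male and ate a diet lacking methionine and choline (MCD) over 8 weeks, so every liver compared here was on the fibrosis-inducing diet and none was on a normal diet. The age of these mice was not given in the sources used here. Since Cre was driven in hepatocytes, stellate cells, macrophages and endothelial cells were not targeted. Libraries are named a to d within each genotype, because the table's columns carry the genotype but no mouse number.

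As background, hepatic stellate cells lie between hepatocytes and sinusoidal endothelium, where in the resting state they store retinoids as esters made by LRAT. After injury they turn into contractile, alpha smooth muscle actin-positive myofibroblasts under transforming growth factor beta and platelet-derived growth factor, and secrete fibrillar collagen, elastic fibre proteins and glycoproteins. Lysyl oxidases cross-link these fibres, matrix metalloproteinases cut them, and tissue inhibitors of metalloproteinases (TIMPs) hold the proteases in check. The MCD diet is a standard mouse model of steatohepatitis with pericellular fibrosis.

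The promoter sequences of 4 of the genes are shown, Col3a1 as the fibrillar collagen with the highest level per kilobase and Thbs2, Timp3 and Lrat as 3 of the 4 genes with an unadjusted p under 0.05. Each is the stretch of up to 250 bases before the start of transcription in RefSeq (GRCm38.p6), written 5′ to 3′ on the strand of the gene. Timp3 is shown for 210 bases, up to the first base annotated by GENCODE. Capitals mark matches to CCAAT, to the GC box GGGCGG and to the AP-1 motif TGANTCA, each on both strands, and to TATAAA on the strand of the gene. The motifs did not overlap in these windows.
Col3a1 (chr1:45311288-45311537, plus strand): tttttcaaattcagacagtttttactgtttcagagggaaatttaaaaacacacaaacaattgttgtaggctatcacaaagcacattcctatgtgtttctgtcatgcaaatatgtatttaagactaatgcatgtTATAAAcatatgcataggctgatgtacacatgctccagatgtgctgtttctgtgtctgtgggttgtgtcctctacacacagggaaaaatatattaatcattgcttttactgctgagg
Thbs2 (chr17:14694263-14694512, minus strand): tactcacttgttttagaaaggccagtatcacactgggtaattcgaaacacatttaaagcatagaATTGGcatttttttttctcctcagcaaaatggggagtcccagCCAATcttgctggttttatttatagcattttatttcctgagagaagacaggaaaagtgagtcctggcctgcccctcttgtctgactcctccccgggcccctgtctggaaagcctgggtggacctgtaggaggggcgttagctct
Timp3 (chr10:86300162-86300371, plus strand): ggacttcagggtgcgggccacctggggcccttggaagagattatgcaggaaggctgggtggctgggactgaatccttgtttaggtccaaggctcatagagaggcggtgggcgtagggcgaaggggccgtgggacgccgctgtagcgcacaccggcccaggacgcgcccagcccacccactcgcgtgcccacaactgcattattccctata
Lrat (chr3:82903975-82904224, minus strand): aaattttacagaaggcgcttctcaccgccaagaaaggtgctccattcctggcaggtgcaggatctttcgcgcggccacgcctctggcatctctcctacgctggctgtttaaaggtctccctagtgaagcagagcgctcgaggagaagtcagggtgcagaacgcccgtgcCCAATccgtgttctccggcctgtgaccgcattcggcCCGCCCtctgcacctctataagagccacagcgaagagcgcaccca
The Col3a1 window held a TATAAA starting 117 bases before the start, and the Thbs2 window held CCAAT in one orientation or the other 186 and 144 bases before it. In the Lrat window, CCAAT began 81 bases and a GC box 45 bases before the start. None of the letters searched was in the 210 bases of Timp3. Of the 49 genes, 34 matched an entry of the RefSeq promoter table. The GC box was in 55.9% of these 34 windows and in 32.9% of the 27025 windows of the table. CCAAT was in 38.2% against 34.5%, TATAAA in 8.82% against 8.12% and TGANTCA in 5.88% against 6.87%. These shares describe letters in a window and carry no test.

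Nnmt, the targeted gene, encodes nicotinamide N-methyltransferase. Its level in CPM (a gene's counts scaled to a common library total, with edgeR's TMM factors) was 31.8, 44.8, 68.9 and 83.0 in Nnmt LKO libraries a to d and 112, 224, 134 and 84.9 in Control libraries a to d. Every Nnmt LKO library was below every Control library, although Nnmt LKO d and Control d lay close together. The log2 fold change was -1.28 ± 0.33 (SE, n = 4 against 4), with an adjusted p of 0.123 by edgeR's quasi-likelihood test and 0.00467 by DESeq2's Wald test. The counts cover the whole gene and not only its floxed part.

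Library Nnmt LKO a stood apart from the other 7 for most of the matrix genes, so the fold changes below are set beside those without it. The same library had the lowest Nnmt level of the 8 (31.8 CPM). Leaving it out moved the log2 fold change of Nnmt from -1.28 to -1.08, so that fit also drops the liver with the least Nnmt RNA. Whether its Nnmt level bears on its matrix genes was not tested. Library a was the highest of the 8 libraries for 45 of the 49 genes, whereas it was the highest for 20.6% of all tested genes. For 26 of the 49 its CPM was at least 2 times the mean of the other Nnmt LKO libraries, and the median of that ratio was 2.07 (from 0.702 for Col18a1 to 4.41 for Lox). Control a held the lowest value of 17 genes. The library was not shallow: total counts ran from 75020072 to 87934362 over the 8 libraries, with 75643590 in Nnmt LKO a, and its TMM factor was 1.21 against 0.876 to 1.06 in the others. The mean of the 49 genes' log2(CPM + 2) values, each centred on its own mean over the 8 libraries, was 0.753, 0.0315, -0.226 and -0.244 in Nnmt LKO a to d and -0.353, -0.231, 0.154 and 0.115 in Control a to d. Nnmt LKO c and d therefore lay with Control a and b, and Nnmt LKO a alone lay above Control c and d.

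**Figure D1:**
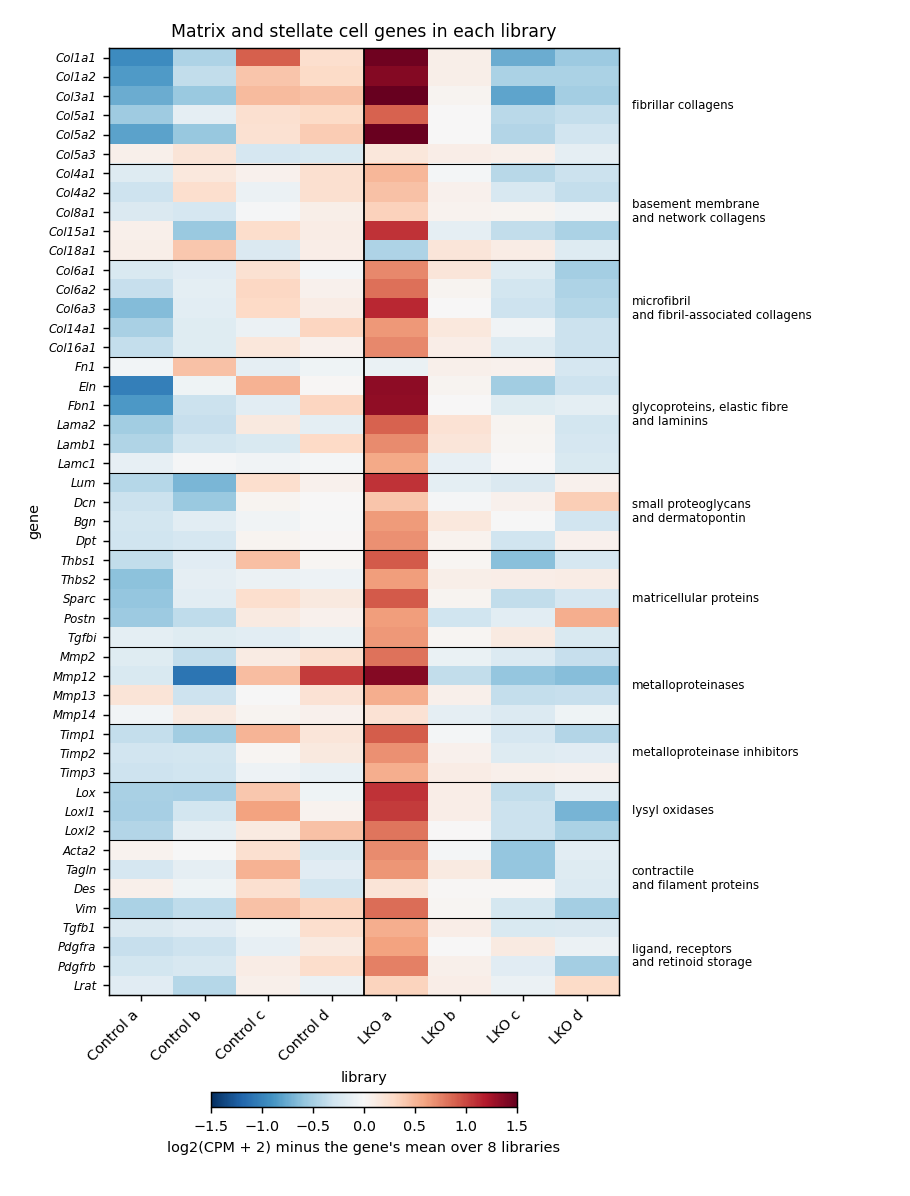
Level of each of the 49 genes (rows, grouped by role) in the 8 libraries (columns, the 4 Control ones on the left of the black line), as log2(CPM + 2) minus the gene's mean over the libraries; colours saturate at 1.5 in either direction. The column of Nnmt LKO a is red for nearly every gene, Col18a1 and Fn1 being pale or blue, while the other Nnmt LKO columns hold both colours, as the Control columns do.

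The genes varied more between livers of one genotype than the median gene did. Over the 4 Control libraries the median SD of log2(CPM + 2) was 0.278 for the 49 genes and 0.15 for all tested genes. In Nnmt LKO it was 0.488 against 0.157, and without library a 0.216 against 0.121. Among the Control libraries the highest value of a gene was a median of 1.72 times the lowest.

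The comparison of genotypes asks whether loss of Nnmt in hepatocytes came with a different level of fibrosis transcripts on the MCD diet. No gene of the 49 reached an adjusted p below 0.05 with edgeR, which 0.32% of all tested genes passed (49 genes of 15291). DESeq2 also called none (3.32% of all genes), and the lowest adjusted p of any of the 49 genes was 0.195 with edgeR and 0.0753 with DESeq2, both for Timp3. At an unadjusted p of 0.05, 4 genes were higher in Nnmt LKO, namely Timp3, Thbs2, Dcn and Lrat, beside 5.45% of all tested genes, and none was lower, beside 7.13%. DESeq2 gave 5 higher, beside 6.65% of all genes, and none lower, beside 7.6%. The libraries of the genotypes did not overlap for Thbs2 and Timp3, both higher in Nnmt LKO (3.34% of all tested genes did so), and for no gene in the lower direction (4.81%).

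With all 8 libraries, 42 of the 49 log2 fold changes were above 0, beside 52.3% of all tested genes, and their median was 0.241 beside 0.0167. Without Nnmt LKO a the direction turned: 33 of the 49 were below 0 and 16 above, beside 49.7% of all genes above 0, the median was -0.123 beside -0.00223 for all genes, and 26 genes had moved from above to below 0. Then 1 gene, Timp3, was higher at an unadjusted p of 0.05 (5.84% of all genes) and 1, Col4a1, was lower (7.42%). The 16 genes above 0 without Nnmt LKO a were above 0 in each of the 8 fits that left out 1 library. In the same fits 2 genes, Col18a1 and Mmp14, kept a value below 0. These fits share most of their libraries, and the share of all genes that keep their sign was not counted, so the lists are descriptive. The 16 were Col5a3, Col8a1, Col14a1, Fbn1, Lama2, Lamb1, Lum, Dcn, Bgn, Dpt, Thbs2, Postn, Tgfbi, Timp3, Pdgfra and Lrat. The type I, type III and type VI collagens, the lysyl oxidases and Acta2 were not among them. With all libraries the 95% confidence interval excluded a 2-fold change in either direction for 31 genes and a 2-fold decrease for 47, and it held 0 for 45. Without Nnmt LKO a these counts were 40, 40 and 47, so that a 2-fold decrease was no longer excluded for 9 genes against 2 with all libraries. In whole liver, more cells of a type and more RNA per cell cannot be told apart.

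**Figure D2:**
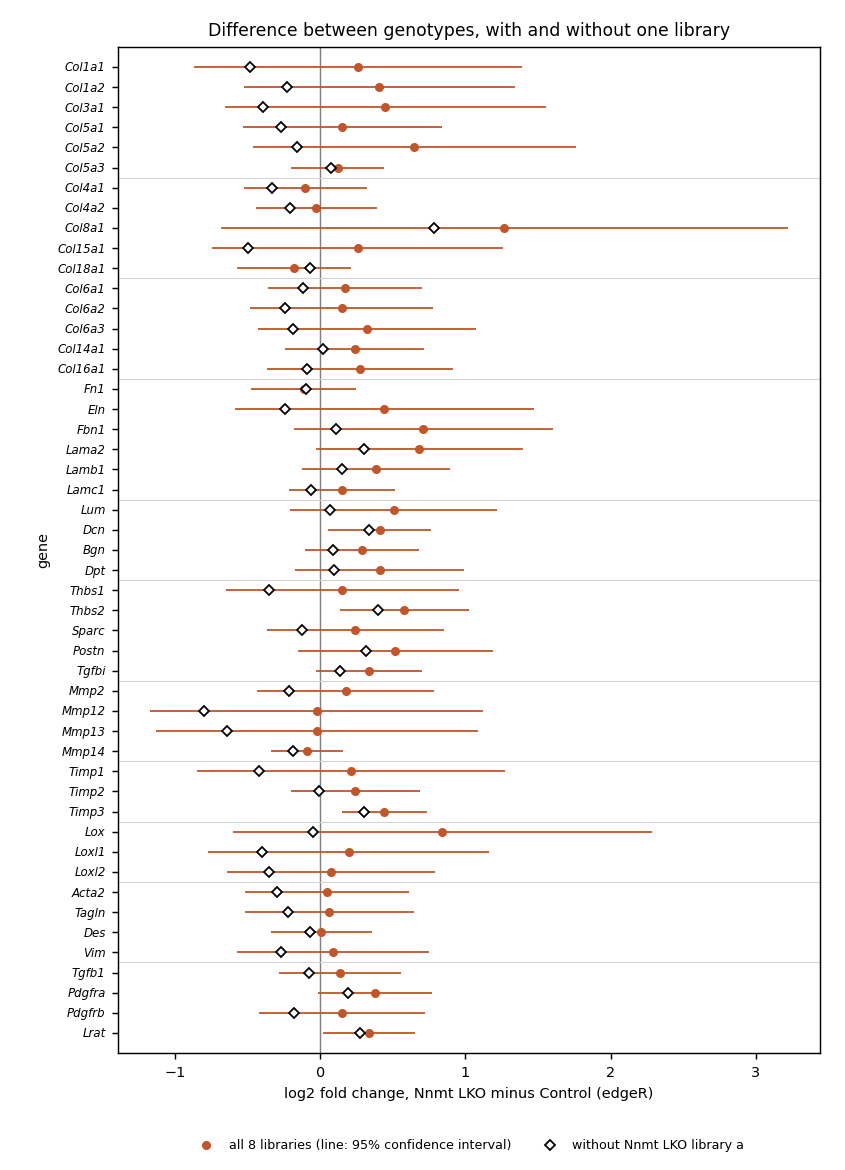
Log2 fold change (Nnmt LKO minus Control) of each gene with all 8 libraries (filled circles, lines are 95% confidence intervals) and without Nnmt LKO library a (open diamonds). Most circles lie to the right of 0 and most diamonds to the left of their circle, with 33 of 49 diamonds below 0; Thbs2, Timp3, Dcn and Lrat have lines that stop short of 0.

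Of the signals and receptors that act on stellate cells and the retinoid-storing enzyme, none passed the adjusted p, and the 4 log2 fold changes had a median of 0.24. Tgfb1, the ligand that drives collagen synthesis, had the highest level per kilobase of exon in this group (4.22 ± 0.71 in Control, 4.63 ± 1.35 in Nnmt LKO, CPM per kilobase, mean ± SD, n = 4). It lies on chr7:25687002-25705077 (GENCODE M21, GRCm38, as for all gene positions here). Its CPM was 32.9, 23.6, 18.3 and 18.5 in Nnmt LKO a to d and 18.5, 19.2, 20.9 and 26.4 in Control a to d. The groups overlapped, with a log2 fold change of 0.13 ± 0.19 (SE, n = 4, edgeR adjusted p = 0.811) and -0.08 without Nnmt LKO a. Lrat, which esterifies retinol for storage in stellate cells, lies on chr3:82892579-82903973 and is the gene whose promoter with CCAAT and GC box letters is printed above. Its CPM was 26.0, 21.8, 18.9 and 25.1 in Nnmt LKO and 17.8, 14.6, 21.5 and 18.9 in Control. Here Nnmt LKO d was nearly as high as Nnmt LKO a, and the ranges overlapped only between 18.9 and 21.5. Lrat had a log2 fold change of 0.34 ± 0.14 (unadjusted p = 0.0398, edgeR adjusted p = 0.366), and 0.27 without Nnmt LKO a. Pdgfra and Pdgfrb, receptors for platelet-derived growth factor on mesenchymal cells, had log2 fold changes of 0.38 and 0.15, and 0.19 and -0.18 without that library.

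The fibrillar collagens, which form the tensile fibres of scar, had the widest gap between library a and the rest. Col3a1, the highest of the 6 per kilobase (7.39 ± 3.21 in Control and 10.1 ± 9.06 in Nnmt LKO, CPM per kilobase), lies on chr1:45311538-45349706, and the TATAAA shown above precedes it. Its CPM was 231, 74.4, 40.7 and 50.01 in Nnmt LKO a to d and 42.1, 48.6, 101 and 98.5 in Control a to d. Control c and d were thus above every Nnmt LKO library except a, which was more than 2 times as high as either. Col1a1 CPM was 106, 39.4, 21.4 and 24.7 in Nnmt LKO and 18.3, 26.3, 70.4 and 44.7 in Control, and Col1a2 CPM was 113, 45.3, 30.0 and 29.9 against 22.7, 32.5, 57.3 and 52.2. For both chains of type I collagen, as for Col3a1, the 4 highest libraries in order were Nnmt LKO a, Control c, Control d and Nnmt LKO b, and the genotypes overlapped. Their log2 fold changes were 0.45 ± 0.50 for Col3a1, 0.26 ± 0.51 for Col1a1 and 0.41 ± 0.42 for Col1a2 (SE, n = 4, edgeR adjusted p from 0.732 to 0.875). Without Nnmt LKO a they were -0.40, -0.49 and -0.23. Col5a1 and Col5a2, chains of the type V collagen that seeds fibrils, had 0.15 and 0.65 with all libraries and -0.27 and -0.16 without that library. Col5a3 was the exception, at 10.6 to 15.2 CPM in all 8 libraries and 0.12 and 0.07 in the fits. Of the 6 fibrillar collagen genes, 6 were above 0 with all libraries (median 0.33) and 1 without Nnmt LKO a (median -0.25).

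Basement membrane and network collagens split into abundant genes with little difference and scarce genes with large error. Col18a1, which is also made by hepatocytes and is the source of endostatin, had 111 ± 19.5 and 97.8 ± 19.6 CPM per kilobase in Control and Nnmt LKO. Its CPM of 521, 820, 778 and 628 in Nnmt LKO and 769, 954, 619 and 771 in Control made it the only gene of the 49 that was lowest in Nnmt LKO a, and its log2 fold change was -0.18 ± 0.18 (edgeR adjusted p = 0.716), or -0.07 without that library. Col4a1, a chain of the basement membrane collagen IV, had 199, 137, 105 and 112 CPM in Nnmt LKO and 123, 158, 147 and 167 in Control. Library a was the highest of all, whereas the other 3 Nnmt LKO libraries were below Control b to d. The log2 fold change was -0.10 ± 0.19 (adjusted p = 0.865, edgeR), and -0.33 without Nnmt LKO a (unadjusted p = 0.0376, adjusted p = 0.34, edgeR). Its neighbour Col4a2, with which it shares 22 exon bases on the opposite strand, had -0.03 and -0.21. Col15a1 had 11.3 CPM in Nnmt LKO a and 2.24 to 5.45 in the other 7 libraries. Col8a1 was at 0 counts in Control b and at most 1.03 CPM elsewhere, so its log2 fold change of 1.27 ± 0.89 (0.78 without Nnmt LKO a) rests on few reads.

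Microfibril and fibril-associated collagens had log2 fold changes from 0.15 to 0.32 with a median of 0.24, and 1 of the 5, Col14a1, was above 0 without Nnmt LKO a (median -0.12). Col14a1, which decorates fibril surfaces, was the highest of them at 9.31 ± 2.25 and 10.96 ± 3.34 CPM per kilobase. Its CPM was 109, 77.1, 66.3 and 54.9 in Nnmt LKO and 48.9, 60.9, 64.8 and 86.7 in Control, overlapping over most of the range (0.24 ± 0.22, edgeR adjusted p = 0.695; 0.02 without Nnmt LKO a). The 3 type VI collagen chains Col6a1, Col6a2 and Col6a3 had 0.17, 0.15 and 0.32 with all libraries and -0.12, -0.24 and -0.19 without it.

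Among glycoproteins, elastic fibre proteins and laminins, Fn1 behaved unlike the rest. Fn1 encodes fibronectin, which hepatocytes also secrete into plasma, and had the highest level per kilobase of all 49 genes (153 ± 30.3 in Control, 141 ± 14.8 in Nnmt LKO). CPM of Fn1 was 1587, 1794, 1782 and 1432 in Nnmt LKO and 1653, 2313, 1555 and 1624 in Control, with no excess in Nnmt LKO a and with Control b as the highest (log2 fold change -0.12 ± 0.16, edgeR adjusted p = 0.808; -0.10 without Nnmt LKO a). Elastin (Eln) and fibrillin 1 (Fbn1), which build elastic fibres, reached 32.7 and 28.0 CPM in Nnmt LKO a. In the other 7 libraries Eln ran from 4.74 to 17.6 CPM and Fbn1 from 4.60 to 13.0. The log2 fold changes of Eln and Fbn1 were 0.44 and 0.71, and -0.24 and 0.11 without Nnmt LKO a. The laminin chains Lama2, Lamb1 and Lamc1 had 0.68, 0.38 and 0.15, and 0.30, 0.15 and -0.07 without it.

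The small proteoglycans bind collagen fibrils and control their diameter. Bgn was the highest of them per kilobase of the longest transcript. Dcn, which encodes decorin, lies on chr10:97479609-97518143. It was the highest per kilobase of all exons (31.7 ± 6.10 in Control, 42.1 ± 6.24 in Nnmt LKO). Its CPM was 281, 209, 221 and 273 in Nnmt LKO and 169, 143, 218 and 211 in Control. Control c and d lay between Nnmt LKO b and c, so the groups overlapped narrowly. Dcn had a log2 fold change of 0.41 ± 0.16 (unadjusted p = 0.0277, edgeR adjusted p = 0.32), and 0.34 without Nnmt LKO a. Lum, Bgn and Dpt had 0.50, 0.29 and 0.41 with all libraries and 0.06, 0.08 and 0.09 without that library. All 4 genes of this group stayed above 0 (median 0.41, and 0.09 without Nnmt LKO a).

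Of the matricellular proteins, which signal from the matrix to cells, Thbs2 separated the genotypes. Thbs2 (thrombospondin 2) lies on chr17:14665500-14694235, downstream of the promoter with a pair of CCAAT matches printed above. Its CPM was 13.9, 8.91, 9.05 and 9.16 in Nnmt LKO and 4.72, 7.35, 7.697 and 7.74 in Control. Every Nnmt LKO library was above every Control library, with Nnmt LKO a far above its group and Control a far below its own. For Thbs2 the log2 fold change was 0.58 ± 0.20 (unadjusted p = 0.0156, edgeR adjusted p = 0.26), and 0.39 without Nnmt LKO a (unadjusted p = 0.0506). Sparc was the highest of the group per kilobase of the longest transcript. Tgfbi is a secreted protein induced by transforming growth factor beta. It was the highest per kilobase of all exons (34.4 ± 0.792 in Control, 43.3 ± 11.8 in Nnmt LKO). Its CPM was 226, 147, 159 and 122 in Nnmt LKO and 129, 127, 129 and 134 in Control, where the 4 Control libraries were nearly equal (0.33 ± 0.17, edgeR adjusted p = 0.436; 0.14 without Nnmt LKO a). Postn (periostin) had 0.52 and 0.31, whereas Thbs1 had 0.15 and -0.35 and Sparc 0.24 and -0.13 in the 2 fits.

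The metalloproteinases had the lowest median of all the role groups without Nnmt LKO a. Mmp12, the macrophage elastase, was the highest per kilobase of all exons (11.1 ± 6.60 in Control, 10.9 ± 9.09 in Nnmt LKO). Per kilobase of the longest transcript, Mmp14 was the highest. CPM of Mmp12 was 177, 51.2, 44.2 and 42.3 in Nnmt LKO and 56.9, 30.3, 92.5 and 141 in Control. Control d approached Nnmt LKO a, and the other Nnmt LKO libraries lay close to each other, above Control b and below the rest of Control. The log2 fold change was -0.02 ± 0.52 (edgeR adjusted p = 0.988), and -0.80 without Nnmt LKO a (unadjusted p = 0.0623). Mmp2, the gelatinase A of stellate cells, had 22.6, 11.1, 10.1 and 8.9972 CPM in Nnmt LKO and 10.3, 8.89, 13.2 and 14.4 in Control (0.17 ± 0.28, edgeR adjusted p = 0.834; -0.22 without Nnmt LKO a). Mmp13, an interstitial collagenase, was below 3 CPM throughout with -0.02 and -0.64, and Mmp14, the membrane-bound activator of Mmp2, had -0.09 and -0.19. Of the 4, 1 was above 0 with all libraries and none without Nnmt LKO a (median -0.43).

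Of the TIMPs, Timp3, which binds to the matrix itself, had the lowest p-value of the 49 genes. Timp3 lies on chr10:86300372-86349506 and shares 1733 exon bases on the opposite strand with Syn3, whose level was 0.46 CPM in Control and 0.43 in Nnmt LKO. Its own CPM was 48.9, 35.4, 34.7 and 34.4 in Nnmt LKO and 26.0, 26.2, 30.8 and 30.2 in Control. The lowest Nnmt LKO library exceeded the highest Control library, also without Nnmt LKO a, which again was far above its group. Timp3 had a log2 fold change of 0.44 ± 0.13 (95% confidence interval 0.15 to 0.73, unadjusted p = 0.00713, edgeR adjusted p = 0.195), and 0.30 without Nnmt LKO a (unadjusted p = 0.0178). Timp2, the highest of the TIMPs per kilobase (8.62 ± 1.38 and 10.2 ± 3.38), had 58.9, 37.5, 30.9 and 31.5 CPM in Nnmt LKO and 29.0, 29.2, 36.4 and 39.8 in Control. Timp1, an injury-induced inhibitor often used as a fibrosis marker, had 7.56, 2.9985, 2.28 and 1.76 against 1.99, 1.56, 5.29 and 3.77. For Timp2 and Timp1 the libraries overlapped, Control c and d being above Nnmt LKO c and d. The log2 fold changes of Timp2 and Timp1 were 0.24 ± 0.20 and 0.21 ± 0.48 (edgeR adjusted p = 0.664 and 0.891), and -0.01 and -0.43 without Nnmt LKO a.

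Lysyl oxidases, which start the cross-linking of collagen and elastin, had the same 4 highest libraries as the type I and III collagens. Loxl1, the highest per kilobase (2.14 ± 0.963 and 2.45 ± 1.74), had 16.3, 7.48, 5.09 and 3.45 CPM in Nnmt LKO and 4.29, 5.31, 11.5 and 7.16 in Control, and the groups overlapped (0.20 ± 0.44, edgeR adjusted p = 0.89; -0.40 without Nnmt LKO a). Lox was at 5.60 CPM in Nnmt LKO a and between 0.528 and 2.75 CPM in the other 7 libraries. Its log2 fold change of 0.84 ± 0.66 came to -0.05 without that library, and Loxl2 had 0.07 and -0.35. Loxl2 shares 301 exon bases on the opposite strand with Gm27177. Gm27177 was at 5.83 CPM in Control and 4.75 in Nnmt LKO, against 9.59 and 10.1 for Loxl2.

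The contractile and filament proteins, by which activated stellate cells are usually scored, had log2 fold changes of 0.01 to 0.09. Acta2, which encodes alpha smooth muscle actin, had 26.1, 14.9, 9.53 and 13.5 CPM in Nnmt LKO and 15.9, 15.2, 18.4 and 12.7 in Control, a log2 fold change of 0.04 ± 0.26 (95% confidence interval -0.52 to 0.61) and -0.30 without Nnmt LKO a. Vim (vimentin), an intermediate filament of mesenchymal cells and leucocytes, was the highest per kilobase (17.3 ± 5.71 and 18.4 ± 8.39). Its CPM was 144, 82.0, 66.3 and 55.5 in Nnmt LKO and 56.8, 60.8, 110 and 101 in Control (0.09 ± 0.30, edgeR adjusted p = 0.929; -0.27 without Nnmt LKO a). Des (desmin), an intermediate filament of stellate and muscle cells, differed least of the 4 between libraries, at 7.59 to 11.7 CPM, with 0.01 and -0.07 in the 2 fits. Tagln had 0.06 and -0.22. It shares 108 exon bases on the opposite strand with Pcsk7, and 1241 with Gm48529, which is not in the count table. Pcsk7 was at 38.6 CPM in Control and 37.0 in Nnmt LKO, against 30.4 and 31.7 for Tagln. The strand setting of the counting is not given in the sources used here.

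**Figure D3:**
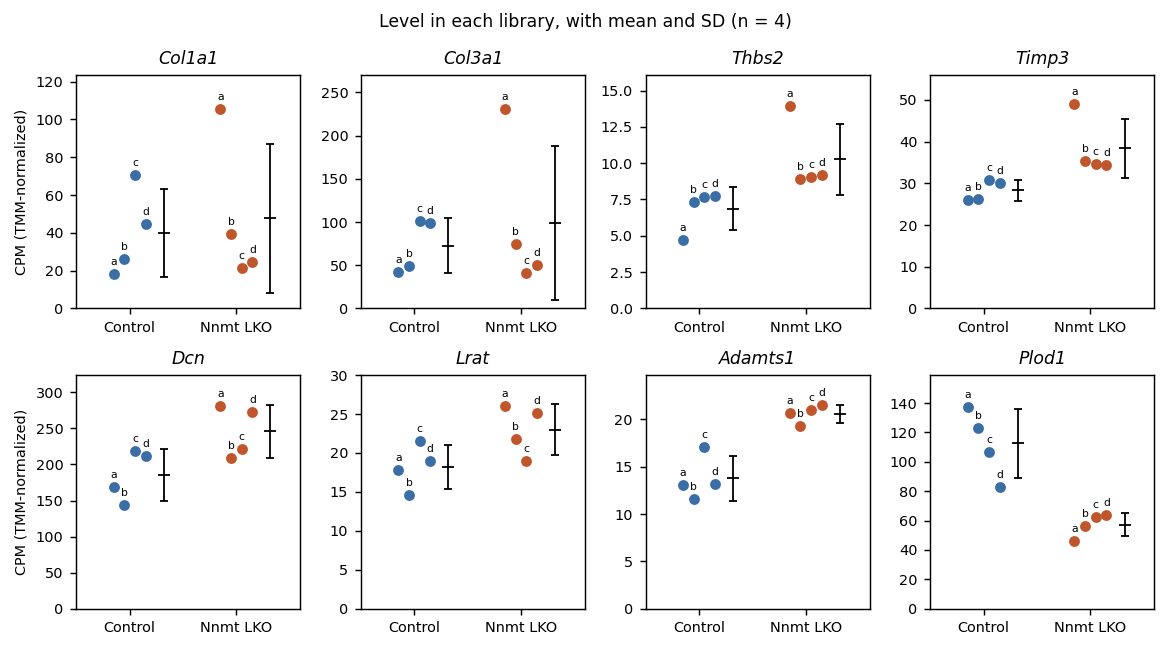
CPM of 8 genes in each library (points, letters a to d name the library) with the mean and SD of each genotype (black, n = 4). Col1a1 and Col3a1 have wide, overlapping groups with Nnmt LKO a on top; Thbs2, Timp3 and Adamts1 have every Nnmt LKO point above every Control point, Plod1 has every one below, and Dcn and Lrat overlap narrowly.

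Other genes of these pathways were read from lists that share no gene with the 49. Of the 27 enzymes that hydroxylate, fold and trim procollagen, 26 were tested. Of these, 1 passed the adjusted p with edgeR, beside 0.32% of all tested genes. It was Plod1, a lysyl hydroxylase that prepares collagen for cross-linking. Plod1 CPM was 46.3, 56.1, 62.4 and 63.6 in Nnmt LKO and 138, 123, 107 and 82.9 in Control, with no overlap and with Nnmt LKO a as the lowest library. It fell by 0.98 ± 0.16 on the log2 scale (edgeR adjusted p = 0.0456, and -0.89 without Nnmt LKO a). The adjusted p was above 0.05 in 7 of 12 alternative fits, up to 0.173, and 2.14e-05 with DESeq2. The list as a whole had 16 genes above 0 and 10 below with all libraries (median 0.08), beside 52.3% of all genes above 0. Without Nnmt LKO a, 11 were above and 15 below (median -0.06), beside 49.7% above 0.

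Of 30 genes of transforming growth factor beta signalling, none passed the adjusted p with edgeR or DESeq2, 3 were higher at an unadjusted p of 0.05 (5.45% of all tested genes) and none lower (7.13%). Skil, a repressor of SMAD proteins, had a log2 fold change of 0.57, Tgfbr3, the co-receptor betaglycan, 0.53, and Lrrc32, which holds the latent ligand at the cell surface, 0.31 (unadjusted p = 0.0137, 0.0157 and 0.0296 in edgeR's test). Without Nnmt LKO a, Skil had 0.47, Tgfbr3 0.58 and Lrrc32 0.29, and 2 genes of the list were higher and 3 lower at that limit (5.84% and 7.42% of all genes), Lrrc32 no longer being among them. The 3 lower genes were Smad3, a transducer of the signal, with -0.62, Tgif1, a repressor of SMAD targets, with -0.57, and Acvr1b, an activin receptor, with -0.33 (unadjusted p = 0.00115, 0.00313 and 0.0432 in edgeR's test). With all libraries these 3 had -0.40, -0.39 and -0.27 (unadjusted p = 0.0601, 0.0547 and 0.0702). For Skil, Tgfbr3 and Lrrc32 the libraries of the genotypes overlapped. Of known targets of the pathway, Ctgf, a matricellular growth factor, was at 37.1 CPM in Control and 36.1 in Nnmt LKO. Smad7, the inhibitory SMAD, was at 12.8 and 13.4. Cyr61, also in the list, had log2 fold changes from -0.643 to -0.278 in the 8 fits that left out 1 library (lowest adjusted p in any alternative 0.291). The list's median was 0.15 with all libraries and -0.06 without Nnmt LKO a.

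None of the 5 genes of platelet-derived growth factor signalling passed either limit (median -0.09, and -0.12 without Nnmt LKO a). Of 25 other metalloproteinases and matrix proteases, 22 were tested, none passed the adjusted p with edgeR, 4 were higher at an unadjusted p of 0.05 (5.45% of all tested genes) and none lower (7.13%). Adamts1, a secreted protease that cleaves proteoglycans, had 20.6, 19.3, 21.0 and 21.5 CPM in Nnmt LKO and 13.1, 11.6, 17.1 and 13.2 in Control, with no overlap and with library a inside its group. Its log2 fold change was 0.58 ± 0.13 with and 0.58 without Nnmt LKO a (edgeR adjusted p = 0.0907, 0.00319 with DESeq2). Mmp24 and Adam9 had 0.999 and 0.33 (unadjusted p = 0.00726 and 0.0276 in edgeR's test), and 0.80 and 0.35 without Nnmt LKO a. Without that library 3 genes of the list were higher and 3 lower at the same limit (5.84% and 7.42% of all genes), and the list's median was -0.16 against 0.18 with all libraries. The 3 lower genes were Plau, a urokinase, with -0.89, Plaur, its receptor, with -0.69, and Adam8, a protease of leucocytes, with -0.80 (unadjusted p = 0.00176, 0.0108 and 0.048 in edgeR's test). With all libraries they had -0.29, -0.17 and -0.09.

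Markers of cell types place these values in the tissue. Of 20 stellate cell markers outside the 49 genes, 19 were tested, 16 were above 0 beside 52.3% of all genes, and 14 without Nnmt LKO a beside 49.7%. None passed the adjusted p with edgeR, and 4 were higher at an unadjusted p of 0.05 beside 5.45% of all genes (3 without Nnmt LKO a, beside 5.84%). Their summed CPM was 654, 677, 689 and 622 in Nnmt LKO a to d and 573, 612, 522 and 588 in Control a to d. The sums did not overlap between the genotypes, and library a was not the highest. Rgs5, a regulator of G protein signalling in pericytes and stellate cells, had 35.2, 27.4, 25.3 and 36.6 CPM against 18.5, 14.3, 23.6 and 16.9 (0.77 ± 0.17, edgeR adjusted p = 0.0907, 0.00352 with DESeq2; 0.70 without Nnmt LKO a). Gdf2, the stellate cell ligand BMP9, had 0.32 and Reln, the glycoprotein reelin, 0.41 (unadjusted p = 0.0136 and 0.0407 in edgeR's test), and 0.29 and 0.38 without Nnmt LKO a. The list's median was 0.29 with and 0.20 without Nnmt LKO a.

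Macrophage markers were high and hepatocyte markers low in library a, and both also varied within Control. The 20 Kupffer cell and macrophage markers summed to 2826, 1428, 1393 and 1414 CPM in Nnmt LKO a to d and to 1156, 1130, 1733 and 2569 in Control a to d. The livers with high sums, Nnmt LKO a and Control c and d, were also those with a high mean of the 49 genes. The 14 hepatocyte markers summed to 96920, 145600, 161800 and 156100 CPM in Nnmt LKO and 148400, 170900, 115000 and 129000 in Control, so the same 3 libraries had the lowest hepatocyte sums. No macrophage, hepatocyte or cholangiocyte marker passed the adjusted p with edgeR, and 14 of 20, 8 of 14 and 7 of 9 of them were above 0, beside 52.3% of all genes. Without Nnmt LKO a these were 10, 9 and 5, beside 49.7%. At an unadjusted edgeR p of 0.05, 1 hepatocyte marker was higher and 1 lower with all libraries (5.45% and 7.13% of all genes). Of the cholangiocyte markers, 2 were higher and 1 lower. Without Nnmt LKO a, 5 hepatocyte markers were higher (5.84% of all genes), namely Apob, Cps1, Hnf4a, Tat and Pck1. In that fit Cyp2e1 was lower (7.42%), and 1 cholangiocyte marker was higher and 1 lower. Of the macrophage markers, 4 were then lower at an unadjusted p of 0.05 (7.42% of all genes), namely Lgals3 (galectin 3) with -0.93, Fabp5 with -0.86, Gpnmb with -1.13 and Itgax (CD11c) with -0.72, against -0.46, -0.37, -0.37 and -0.19 with all libraries. The median of the macrophage list was 0.25 with all libraries and -0.05 without Nnmt LKO a. Cholangiocyte markers had their highest sum in Nnmt LKO a, at 316 CPM against 112 to 202 in the other Nnmt LKO libraries and 78.2 to 198 in Control. Spp1 is in both this list and the macrophage list, so these sums are not separate observations. The part of cell composition in the values of the 49 genes was not tested.

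**Figure D4:**
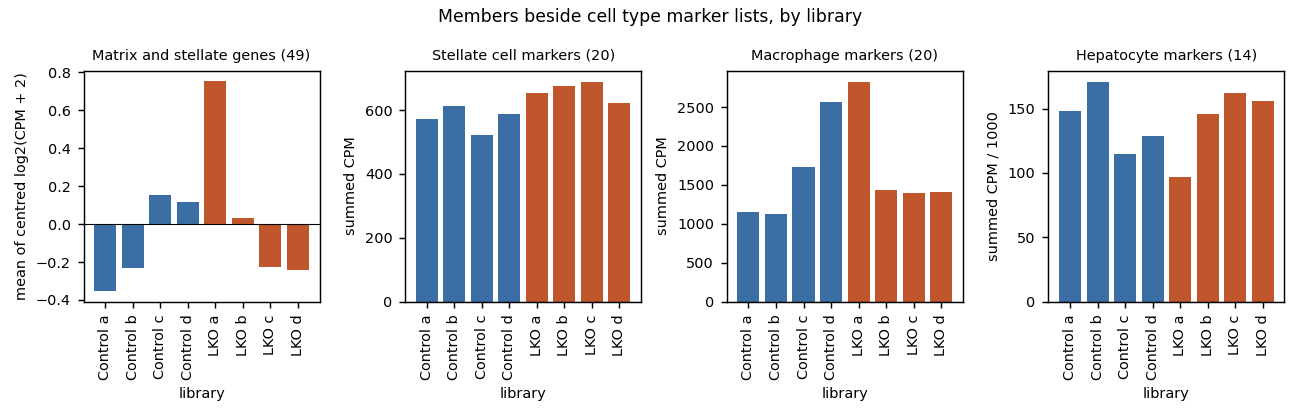
Bars give 1 library each, Control in blue and Nnmt LKO in orange: the mean centred log2(CPM + 2) of the 49 genes, then the summed CPM of stellate cell, macrophage and hepatocyte markers (the last divided by 1000). Nnmt LKO a and Control c and d are high in the panels of the 49 genes and of macrophage markers and low in that of hepatocyte markers, while among stellate cell markers all Nnmt LKO bars are above all Control bars. The first panel weighs its genes equally, whereas the sums follow the most abundant genes, so the panels are not on 1 scale.

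In the remaining marker lists edgeR gave no gene an adjusted p below 0.05. Portal fibroblast and mesothelial markers had 10 of 14 tested genes above 0 beside 52.3% of all genes, and 8 without Nnmt LKO a beside 49.7%. At an unadjusted p of 0.05, 1 was higher, Fbln2 (fibulin 2), beside 5.45% of all genes, and 0 lower, beside 7.13%. Fbln2 had 0.74, and 0.35 without Nnmt LKO a (unadjusted p = 0.0703 in edgeR's test). In the fit without that library, Dpp4 was higher at that limit with 0.29 (5.84% of all genes) and Entpd2 lower with -0.50 (7.42%). Vascular smooth muscle markers had 6 of 7 above 0 with and without Nnmt LKO a (52.3% and 49.7% of all genes). At that limit 3 were higher with all libraries and 1, Mustn1, without Nnmt LKO a (5.45% and 5.84% of all genes), and their sums of 76.0 to 92.3 CPM in Nnmt LKO lay above the 63.8 to 71.6 CPM of Control. Mustn1, a small muscle protein, had 0.38 ± 0.10, Myh11, the smooth muscle myosin heavy chain, 0.71 ± 0.29 and Mylk, the myosin light chain kinase, 0.24 ± 0.10 (edgeR adjusted p from 0.127 to 0.339). Without Nnmt LKO a, Mustn1 had 0.40, Myh11 0.32 and Mylk 0.23. Endothelial markers had 7 of 13 above 0 in both fits (52.3% and 49.7% of all genes) and overlapping sums (417 to 479 CPM in Nnmt LKO, 312 to 576 in Control). In each fit 1 was higher at an unadjusted p of 0.05 (5.45% and 5.84% of all genes) and 0 lower (7.13% and 7.42%). Lymphocyte and neutrophil markers were low, with 10 of 12 above 0 beside 52.3% of all genes (9 without Nnmt LKO a, beside 49.7%). In each fit 2 were higher at the same limit and 0 lower. For 3 of them the libraries did not overlap, all higher in Nnmt LKO (3.34% of all tested genes). The list summed to 11.9 to 21.2 CPM in Nnmt LKO and 9.87 to 18.8 CPM in Control. Of 8 adipose and pancreas markers, 5 were at 0 counts in all libraries and the sums were at most 13.4 CPM.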

How the data were processed

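RNA-seq was done on liver of 4 Control and 4 Nnmt LKO mice. Per the labels and the study's methods, total RNA was extracted with TRIzol, and the submitters' processing notes name HISAT2, StringTie and the mm10 build. The annotation and the strand setting are not given in the sources used here. The authors deposited 1 table of raw counts per gene, with 75020072 to 87934362 counts per library. Groups came from the genotype in the column names.

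Genes were tested with edgeR 4.0.16 in R 4.3.3 (filterByExpr with a minimum count of 10, TMM, quasi-likelihood test, Benjamini-Hochberg adjustment over 15291 genes), and DESeq2 1.42.0 was an alternative, since the study used DESeq2. The script was tested on simulated data. Log2 fold changes are Nnmt LKO minus Control with SE. Gene positions and exon lengths were taken from GENCODE M21 (GRCm38) and promoters from RefSeq. CPM per kilobase is CPM divided by the length of all exons of a gene. Levels of genes are compared on this scale or, where stated, per kilobase of the longest transcript. Intervals and p-values cover the spread between these libraries. Those of the fit without Nnmt LKO a are descriptive only, since that library was singled out after its values were seen.

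The 49 genes and the other lists were chosen with earlier results of these data known. Values in each library are given for genes with an unadjusted p under 0.05, genes in the study's RT-qPCR list or histology, the highest gene per kilobase of each role group and genes whose libraries did not overlap. Of the other lists, they or the fold changes are given for genes past the adjusted p and up to 3 with the smallest p. Col15a1, Eln, Fbn1, Lox, Acta2, Ctgf, Smad7, Cyr61 and the genes of other lists that are named for the fit without Nnmt LKO a were named in addition, after their values were seen. Lists covered collagen modifying enzymes, transforming growth factor beta and platelet-derived growth factor signalling, other matrix proteases, and markers of stellate, portal fibroblast and mesothelial, vascular smooth muscle, macrophage, endothelial, cholangiocyte, hepatocyte, lymphocyte and neutrophil, and adipose and pancreas cells. A result that needs a withheld item is not reported here.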

Additional observations from a re-analysis of the deposited data

Results flagged for a closer look

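Each group of 4 libraries was examined for 1 library far from the other 3 (Dixon's test) in the CPM of the 49 genes, their mean centred level and the TMM factor. Of 102 groups, 12 were past it, and chance alone passes about 1 in 20. The groups reuse the same 8 libraries and are not independent, so the count of 12 cannot be judged against that share. Of the 12, 9 were Nnmt LKO library a, always as the highest of its group. Its CPM was 25.4 for Col5a2 against 5.24 to 7.83 in the other Nnmt LKO libraries, 11.3 for Col15a1 against 2.50 to 3.67, and 28.0 for Fbn1 against 8.60 to 10.1. For Lum it was 36.5 against 13.7 to 17.1, for Mmp2 22.6 against 11.1 in the next highest, and for Mmp12 177 against 42.3 to 51.2. For Thbs2 it was 13.9 against 8.91 to 9.16 and for Timp3 48.9 against 34.4 to 35.4. The TMM factor of that library was 1.21 against 0.952 to 0.977. In Control, Fn1 was at 2313 CPM in library b against 1555 to 1653, Thbs2 at 4.72 CPM in library a against 7.35 to 7.74, and Tagln at 43.5 CPM in library c against 24.7 to 27.0.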

How the results depend on the processing

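No paired analysis was possible because columns name only the genotype, so no library can be tied to a mouse. None of the 49 genes passed an adjusted p of 0.05 in the main fit or in any of the 12 alternatives (DESeq2 size factors, library size only, DESeq2's Wald test, no filter on low counts, and each library left out in turn). The number higher at an unadjusted p of 0.05 was 4 with all libraries (5.45% of all genes), 2 with library size only (5.35%), and 1 to 7 with 1 library left out: 1 without Nnmt LKO a (5.84%), 7 without Nnmt LKO d (4.68%), 2 without Control a (4.12%) and 2 without Control b (4.92%). The number lower was 0 to 1, the 1 being Col4a1 without Nnmt LKO a (7.42% of all genes). The median log2 fold change was -0.123 to 0.364 with 1 library left out, negative only without Nnmt LKO a, and 0.325 with library size only, which moved the median of all tested genes from 0.0167 to 0.0723. The cause of these shifts was not tested. With DESeq2's Wald test, genes of the other lists passed an adjusted p of 0.05 that did not in edgeR's test: 1 protease (Adamts1), 1 stellate cell marker (Rgs5), 1 vascular smooth muscle marker (Mustn1), 1 cholangiocyte marker (Tspan8) and 2 lymphocyte markers (Cd3g and Cd8a), as did Nnmt. With the longest transcript as length, 8 of the 11 role groups kept their highest gene per kilobase. DESeq2 called 508 of all genes against 49 with edgeR. With library size only, the log2 fold changes of Col4a2, Mmp12 and Mmp13 turned positive (0.0606, 0.0829 and 0.0959). For these genes the sign turned in at least 1 fit without 1 library, their log2 fold changes running over the 8 fits as Col1a1 -0.487 to 0.683, Col1a2 -0.232 to 0.608, Col3a1 -0.398 to 0.706, Col5a1 -0.271 to 0.307, Col5a2 -0.16 to 0.916, Col4a1 -0.332 to 0.00706, Col4a2 -0.208 to 0.0777, Col15a1 -0.5 to 0.481, Col6a1 -0.123 to 0.339, Col6a2 -0.244 to 0.317, Col6a3 -0.192 to 0.497, Col16a1 -0.0901 to 0.436, Fn1 -0.177 to 0.0447, Eln -0.241 to 0.735, Lamc1 -0.0659 to 0.246. The same held for Thbs1 -0.352 to 0.379, Sparc -0.128 to 0.388, Mmp2 -0.218 to 0.319, Mmp12 -0.804 to 0.394, Mmp13 -0.644 to 0.229, Timp1 -0.426 to 0.582, Timp2 -0.0131 to 0.344, Lox -0.0516 to 1.5, Loxl1 -0.402 to 0.533, Loxl2 -0.353 to 0.273, Acta2 -0.298 to 0.226, Tagln -0.221 to 0.285, Des -0.0923 to 0.112, Vim -0.272 to 0.257, Tgfb1 -0.0769 to 0.256, Pdgfrb -0.18 to 0.323.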

Other observations

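Hepatocyte, endothelial and immune markers outside the fibrosis genes also held values near the limits of the test. Cyp2e1, the ethanol-inducible cytochrome P450 of pericentral hepatocytes, was at 4695, 9023, 9654 and 7679 CPM in Nnmt LKO a to d and at 13326, 17202, 9599 and 9300 CPM in Control a to d (log2 fold change -0.67 ± 0.27, edgeR adjusted p = 0.328; -0.49 without Nnmt LKO a). Pck1, the gluconeogenic carboxykinase, had 0.42 ± 0.19 (edgeR adjusted p = 0.381), and 0.47 without Nnmt LKO a. Of the lymphocyte markers, Cd8a, the co-receptor of cytotoxic T cells, was at 1.21, 0.892, 0.717 and 0.851 CPM in Nnmt LKO and 0.362, 0.238, 0.415 and 0.333 CPM in Control. These levels are low, and the libraries did not overlap (1.44 ± 0.34, edgeR adjusted p = 0.106, 1.28 without Nnmt LKO a, DESeq2 adjusted p = 0.00349).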
